A study of Arabidopsis thaliana with 4 samples.

Results

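Calmodulin-like genes known for their response to touch, or for the part they play in calcium signals, were followed in 2 lines of Arabidopsis thaliana of the Columbia accession (Col-0). Its 10 members were named by locus: TCH2/CML24 (AT5G37770), TCH3/CML12 (AT2G41100), CML23 (AT1G66400), CML9 (AT3G51920), CML37 (AT5G42380), CML38 (AT1G76650), CML39 (AT1G76640), CML40 (AT3G01830), CML41 (AT3G50770) and AT5G39670. Each matched 1 annotated model of the 36251 models in the deposited table, and each of these models holds that gene alone. RNA came from whole 2-week-old wild-type seedlings of the line labelled Another Col-0 and of the line labelled SALK Col-0, with 2 biological replicates per line. All plants grew in soil at 22 °C under long days. The labels do not state how far replicates were grown apart, and a p-value here therefore measures the spread between these libraries, which may be technical. Expression is given as FPKM, fragments scaled to transcript length and to the mapped fragments of a library, which allows levels of different genes to be set side by side.

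Plant cells answer touch, wounding, cold, microbes and salt with brief rises of free calcium in the cytosol. Proteins with EF-hands, helix-loop-helix motifs that bind calcium, read these rises and pass them to their targets. Calmodulin is the conserved sensor of this kind. Plants also carry a large family of calmodulin-like (CML) proteins that diverged from it, and several of their genes, the TCH genes among them, are known to be transcribed within minutes of a plant being touched. In these seedlings 8 of the 10 members had higher FPKM in both libraries of Another Col-0 than in either library of SALK Col-0, and CML41 and CML39 had lower FPKM in both. Of all 20634 models with enough signal to be tested, 26.2% were higher and 20.8% lower in this sense, against 6 and 1 of the 7 tested members. The members were chosen with earlier results of these data known, so these shares are a description and no test. None of the 20634 models passed the test with the line as its only term, and so none of the members. These calls changed when the replicate number was added, as given in the last section. CML37, CML40 and CML39 were at or under about 1 FPKM on average and were not tested.

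The libraries had 22495 to 22822 annotated models above 0 and medians of 15.2 to 15.6 FPKM among annotated models at 1 FPKM or more. Their summed FPKM differed with the replicate number, at 1.59e+06 and 1.23e+06 in replicates 1 and 2 of Another Col-0 and 1.76e+06 and 1.08e+06 in those of SALK Col-0. Read totals are not in the table. Markers of leaf, root, flower and seed were read to check the label of whole seedlings. The 6 leaf markers summed to 21687 and 22728 FPKM in Another Col-0 and to 18957 and 21592 FPKM in SALK Col-0, with LHCB1.3 listed at 0 in every library, RBCS1A higher and GLDP1 lower in Another Col-0 without overlap. The 6 root markers summed to 1453 FPKM in both libraries of Another Col-0 and to 1385 and 1372 FPKM in SALK Col-0, most of it from PYK10. Without overlap, 3 of them were higher in Another Col-0 and 2 were lower, with ratios from 0.736 for PER64 to 1.64 for TIP2;3. The 5 flower markers summed to 47.3 and 40.2 FPKM in Another Col-0 and to 22.1 and 16.6 FPKM in SALK Col-0, mostly from SEP3 and PI. SEP3 had 35.7 and 30.1 FPKM in Another Col-0 and 17.2 and 12.2 FPKM in SALK Col-0, and PI had 9.62 and 8.42 FPKM in Another Col-0 and 3.21 and 2.86 FPKM in SALK Col-0. AP3 and AP1 were under 1 FPKM and also higher in Another Col-0 without overlap, while SHP1 overlapped. The 5 seed markers summed to 2.88 and 2.77 FPKM in Another Col-0 and to 8.12 and 8.11 FPKM in SALK Col-0, most of it from CRA1, the only one above 1 FPKM. OLEO1 and OLEO2 were also lower in Another Col-0 without overlap, whereas CRU3 and SESA1 were higher. The part of these organ differences in the member values was not tested. In whole seedlings, fewer cells of a type and less RNA per cell cannot be told apart.

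TCH2, also called CML24, encodes a calcium sensor named after its induction by touch, and CML23 is its closest relative, with which it acts in the control of flowering. RefSeq gives TCH2 a protein of 161 residues and CML23 one of 157, each with 4 stretches that match the PROSITE EF-hand pattern and each read from a single coding segment. They were identical at 77.1% of aligned residues. Their promoters are printed because they are the only ones among the members with the letters CGCGTT, the core of a rapid stress response element that calmodulin-binding transcription activators (CAMTAs) are known to bind. The windows run 5′ to 3′ from 250 bases before to 50 bases after the RefSeq gene start in TAIR10.1. Capitals mark CGCG and CGCGTT on either strand, where CGCG lies inside CGCGTT, and the W-box core TTGAC on either strand, which WRKY factors bind.

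TCH2/CML24, chr5:14999570-14999869, minus strand: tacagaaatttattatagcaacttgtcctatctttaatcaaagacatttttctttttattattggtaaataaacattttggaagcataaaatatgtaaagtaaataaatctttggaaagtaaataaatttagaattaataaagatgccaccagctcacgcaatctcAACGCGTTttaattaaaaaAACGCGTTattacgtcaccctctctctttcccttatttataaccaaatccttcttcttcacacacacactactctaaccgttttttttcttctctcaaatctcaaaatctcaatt

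CML23, chr1:24771344-24771643, minus strand: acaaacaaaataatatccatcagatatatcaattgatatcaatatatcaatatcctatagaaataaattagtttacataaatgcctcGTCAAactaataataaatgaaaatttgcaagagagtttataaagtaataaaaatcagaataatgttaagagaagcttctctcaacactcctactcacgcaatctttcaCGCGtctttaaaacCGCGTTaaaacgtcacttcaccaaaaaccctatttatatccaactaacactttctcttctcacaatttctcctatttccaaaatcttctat

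The TCH2 window held AACGCGTT at 2 places, 84 and 65 bases before the start, and each reads as CGCGTT on both strands. The CML23 window held CGCGTT once, 41 bases before the start, with a further CGCG 55 bases before the start. Of 27443 windows of protein-coding genes, 3.40% held CGCGTT and 13.0% held CGCG, against 2 and 4 of the 10 members. The core TTGAC lay in 50.5% of all windows and in 5 member windows, and the G-box letters CACGTG in 7.68% of all windows and in no member window. These are matches of letters in 1 window per gene and no evidence of binding.

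**Figure D1:**
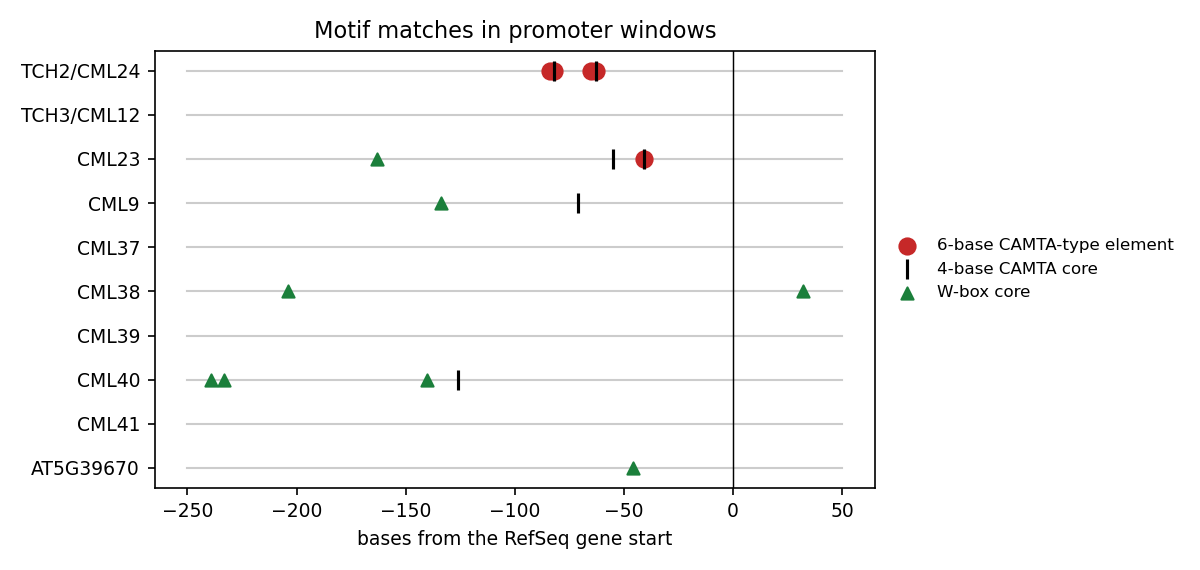
Positions of CGCGTT (red circles), CGCG (black bars) and TTGAC (green triangles), either strand, in the promoter windows of the 10 members. The x axis gives bases from the RefSeq gene start (vertical line). CGCGTT appears in the TCH2 and CML23 windows.

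TCH2 (chromosome 5, 14998220 to 14999619, minus strand) had 144 and 124 FPKM in replicates 1 and 2 of Another Col-0, against 95.4 and 76.7 FPKM in those of SALK Col-0. The lowest library of Another Col-0 thus stood above the highest of SALK Col-0, and in both lines replicate 1 was the higher. Means were 134 ± 14.6 FPKM in Another Col-0 and 86.0 ± 13.3 FPKM in SALK Col-0 (SD, n = 2 each), a ratio of 1.56. On the log2(FPKM + 1) scale the difference, Another Col-0 minus SALK Col-0, was 0.64 ± 0.16 (SE), and it did not pass when p-values were adjusted over the 20634 models whose mean reached 1 FPKM (limma, adjusted p = 0.259). In that test 0% of the models were called at an adjusted p under 0.05, so a member that did not pass stood with every other model tested. The smallest adjusted p of any model was 0.199, and 3439 models had an unadjusted p under 0.05.

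CML23 (chromosome 1, 24770575 to 24771371, minus strand) was expressed at a lower level, at 10.95 and 7.27 FPKM in Another Col-0 and 5.30 and 3.02 FPKM in SALK Col-0. Its lines did not overlap either, but the gap between 7.27 and 5.30 FPKM was smaller than the gap between the replicates of either line. Means were 9.11 ± 2.60 FPKM in Another Col-0 and 4.16 ± 1.61 FPKM in SALK Col-0, a ratio of 2.19. The log2 difference was 0.98 ± 0.35 and did not pass (limma, adjusted p = 0.324). The CML23 model is the least secure of the tested ones. It lies inside a merged model of RBCS1A (AT1G67090), the Rubisco small subunit gene, that stretches over 291656 bases on the same strand and belongs to a bundle of 96 models. That Rubisco model had 8586 and 7825 FPKM in Another Col-0 and 6626 and 6665 FPKM in SALK Col-0. The deposited lower limits of CML23 are 0 in every library, and its value of 3.02 FPKM in SALK Col-0 replicate 2 lies above its own upper limit of 2.65.

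TCH3, also called CML12, was the most abundant member. Its gene encodes a protein of 324 residues with 6 matches to the EF-hand pattern, the most of any member, and the protein is known to bind the auxin-transport kinase PINOID in a calcium-dependent way. TCH3 (chromosome 2, 17137829 to 17139612, plus strand) had 957 and 739 FPKM in Another Col-0, against 658 and 510.4 FPKM in SALK Col-0. The lines were apart, but the gap between 739 and 658 FPKM was smaller than the gap between the replicates of either line. Means were 848 ± 155 FPKM in Another Col-0 and 584 ± 104 FPKM in SALK Col-0, a ratio of 1.45, and the log2 difference of 0.54 ± 0.22 did not pass (limma, adjusted p = 0.373). TCH3 made up 64.8% to 69.5% of the summed FPKM of the 10 members in Another Col-0 and 66.4% to 69.8% in SALK Col-0. That sum was 1378 and 1139 FPKM in Another Col-0 and 943 and 768 FPKM in SALK Col-0.

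CML9, a sensor known from salt, abscisic acid and flagellin responses, had the most even replicates of the members above 10 FPKM. CML9 (chromosome 3, 19268001 to 19269556, minus strand) had 192 and 209 FPKM in Another Col-0 and 124 and 135 FPKM in SALK Col-0. The lines were well apart, and unlike the other tested members replicate 2 was the higher in both. Means were 200.2 ± 12.2 FPKM in Another Col-0 and 129.6 ± 8.01 FPKM in SALK Col-0, a ratio of 1.54, with a log2 difference of 0.62 ± 0.09. This was the smallest p among the members and still did not pass (limma, adjusted p = 0.202). The protein has 151 residues, 4 coding segments and 2 matches to the EF-hand pattern, and is 52.3% identical to TCH3.

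**Figure D2:**
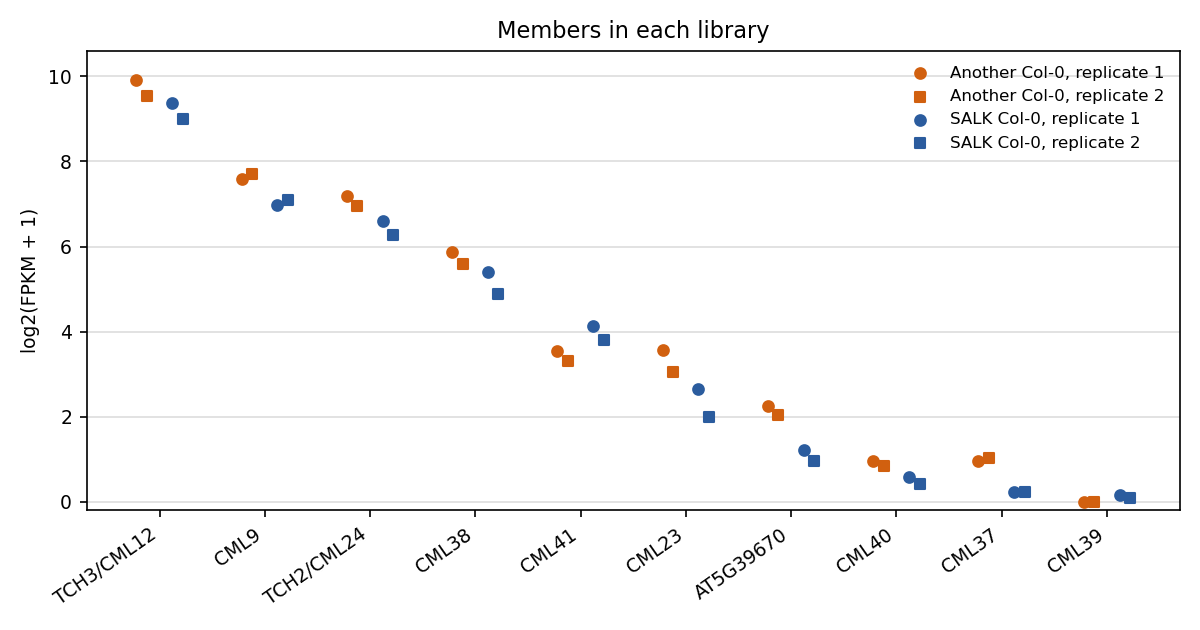
Expression of the 10 members in each library, as log2(FPKM + 1), ordered by mean level. Orange points are Another Col-0 and blue points SALK Col-0, with circles for replicate 1 and squares for replicate 2. The orange points lie above the blue ones in 8 members and below them in CML41 and CML39.

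The CML37 to CML41 genes covered a wide range of levels. CML38, known for its strong induction by wounding and low oxygen and for entering cytoplasmic RNA granules, was the only one above 20 FPKM. CML38 (chromosome 1, 28766750 to 28768138, minus strand) had 57.8 and 47.0 FPKM in Another Col-0 and 41.4 and 28.5 FPKM in SALK Col-0. The lines did not overlap, but were apart by less than the replicates of either line were. Means were 52.4 ± 7.64 FPKM in Another Col-0 and 34.97 ± 9.15 FPKM in SALK Col-0, a ratio of 1.499, and the log2 difference of 0.59 ± 0.25 did not pass (limma, adjusted p = 0.386).

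CML41, which encodes a protein of plasmodesmata that is known to promote callose deposition there during immune signalling, went against the other tested members. CML41 (chromosome 3, 18873941 to 18874780, plus strand) had 10.7 and 8.87 FPKM in Another Col-0, against 16.5 and 13.1 FPKM in SALK Col-0. Both libraries of Another Col-0 were lower than both of SALK Col-0. The gap between 10.7 and 13.1 FPKM was smaller than that between the replicates of SALK Col-0. Means were 9.76 ± 1.27 FPKM in Another Col-0 and 14.8 ± 2.44 FPKM in SALK Col-0, a ratio of 0.660, and the log2 difference of -0.55 ± 0.17 did not pass (limma, adjusted p = 0.295). Its difference was smaller, that is more negative, than all but 3.15% of the tested models. Its promoter is printed beside those of TCH2 and CML23 as that of the tested member with the opposite direction. It has no match to any of the 4 motifs searched. The windows of TCH3 and CML37, both higher in Another Col-0, and of CML39 have none either. For TCH3 and CML37 the window, set at the RefSeq gene start, lies wholly outside the deposited model. It may therefore miss the promoter of the measured transcript.

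CML41, chr3:18873661-18873960, plus strand: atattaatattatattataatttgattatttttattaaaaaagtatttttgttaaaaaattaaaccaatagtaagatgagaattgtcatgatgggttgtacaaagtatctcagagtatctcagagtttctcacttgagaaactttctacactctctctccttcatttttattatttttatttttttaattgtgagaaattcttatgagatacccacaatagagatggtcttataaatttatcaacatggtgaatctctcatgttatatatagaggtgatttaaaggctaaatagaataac

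The other members of this group were near or below 1 FPKM and were not tested. CML37, a positive regulator of jasmonate-dependent defence against herbivores, had 0.955 and 1.03 FPKM in Another Col-0 and 0.176 and 0.184 FPKM in SALK Col-0. At 0.993 ± 0.0543 FPKM in Another Col-0 and 0.180 ± 0.00566 FPKM in SALK Col-0 its ratio of 5.52 was the highest of any member, with replicates close together. CML40 had 0.934 and 0.795 FPKM in Another Col-0 and 0.494 and 0.342 FPKM in SALK Col-0, a ratio of 2.07. The model of LYK2 lies inside that of CML40 on the opposite strand. LYK2 had 0.213 and 0.169 FPKM in Another Col-0 and 0.372 and 0.294 FPKM in SALK Col-0. Reads of their overlap cannot be told apart where strand is not marked. CML39, known from seedling establishment, was listed at 0 in both libraries of Another Col-0 and at 0.116 and 0.0689 FPKM in SALK Col-0, so no ratio is given. Without a filter on low values these members could be fitted. The log2 differences were then 0.76 ± 0.04 for CML37, 0.40 ± 0.08 for CML40 and -0.13 ± 0.03 for CML39, with adjusted p-values between 0.154 and 0.208 (limma). The deposited lower limits of all 3 are 0 in every library.

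CML38 and CML39 are neighbours on chromosome 1, with 946 bases between their models, and were the most alike pair of member proteins, identical at 78.1% of aligned residues. CML37 was 51.4% identical to CML38 and 53.2% to CML39. Each of these proteins has 3 matches to the EF-hand pattern, and each gene has a single coding segment. The longest run of identical coding letters between any 2 members, found in CML38 and CML39, was 34 nt, shorter than a read of 101 nt. Over the 45 pairs of members the median identity was 34.6%.

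AT5G39670 encodes a protein of 204 residues with 1 match to the EF-hand pattern. It had the largest log2 difference of the tested members. AT5G39670 (chromosome 5, 15883102 to 15884067, plus strand) had 3.75 and 3.10 FPKM in Another Col-0, against 1.32 and 0.963 FPKM in SALK Col-0. The lines were well apart beside the gaps between their replicates. Means were 3.43 ± 0.461 FPKM in Another Col-0 and 1.14 ± 0.254 FPKM in SALK Col-0, a ratio of 2.998, and the log2 difference of 1.05 ± 0.17 did not pass (limma, adjusted p = 0.206). It was larger than that of 98.9% of the tested models. The opposite strand at its end carries EMB2744, at 0.712 and 0.661 FPKM in Another Col-0 and 0.765 and 0.698 FPKM in SALK Col-0, and reads of their overlap cannot be told apart where strand is not marked. Its promoter, shown for this difference, held TTGAC 46 bases before the start.

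AT5G39670, chr5:15882929-15883228, plus strand: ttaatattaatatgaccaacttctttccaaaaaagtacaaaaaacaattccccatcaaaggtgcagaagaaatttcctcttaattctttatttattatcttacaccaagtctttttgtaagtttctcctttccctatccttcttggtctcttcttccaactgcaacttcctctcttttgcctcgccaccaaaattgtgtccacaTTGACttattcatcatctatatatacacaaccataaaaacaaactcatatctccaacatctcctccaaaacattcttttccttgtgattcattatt

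The tested members were thus 7 of 10. Among them 6 were higher in Another Col-0 without overlap between the lines and 1 was lower, where 26.2% of all tested models were higher and 20.8% lower in the same sense. Their median log2 difference was 0.62, and that of all tested models was 0.02, with quartiles at -0.14 and 0.19. Because earlier results of these data were known when the members were chosen, this contrast is a description and no test. The ratios of the 6 higher ones ran from 1.45 to 2.998. None passed over all models, nor did any other model, with adjusted p-values of the members from 0.202 to 0.386 in limma. Of the 7, 4 had an unadjusted p under 0.05, as did 3439 of all 20634 tested models. These calls changed when the replicate number was added to the fit, as given in the last section. Within replicate 1 the differences ran from -0.59 in CML41 to 1.03 in AT5G39670, and within replicate 2 from -0.51 to 1.06 in the same genes. The deposited limits of the lines overlapped in all 10 members. For CML23, CML37, CML39 and CML40 this could not be otherwise, as their lower limits are 0 in every library.

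**Figure D3:**
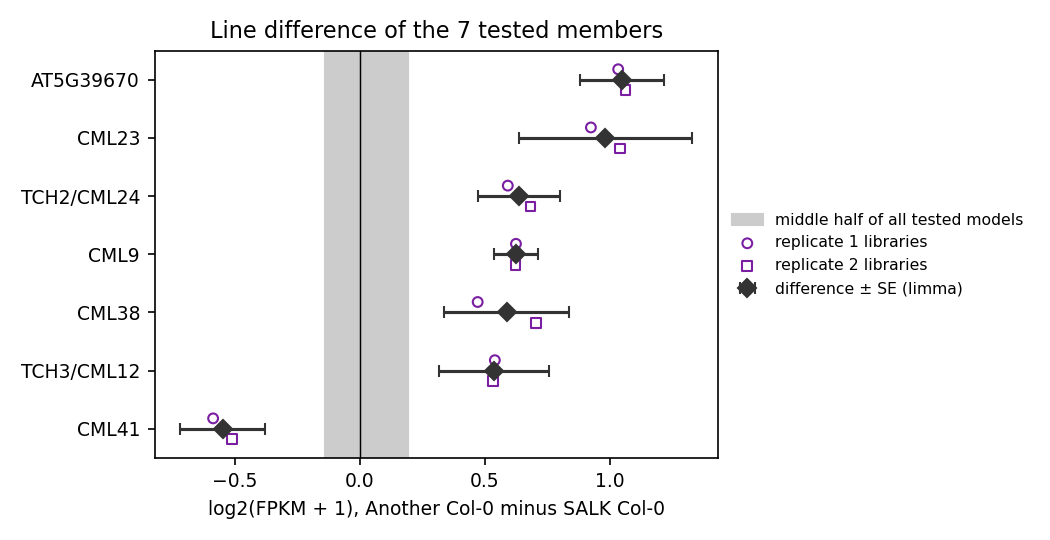
Differences in log2(FPKM + 1), Another Col-0 minus SALK Col-0, of the 7 tested members (diamonds with SE bars from limma), with the differences within replicate 1 (open circles) and replicate 2 (open squares). The grey band is the quartile range of all 20634 tested models, from -0.14 to 0.19. CML41 lies left of it and the other 6 to its right.

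The order of levels was nearly the same in both lines. TCH3 was highest, followed by CML9, TCH2 and CML38, each below the one before it in every library. In SALK Col-0 CML41 came next, above CML23 by more than their spread. In Another Col-0 CML41 and CML23, at 9.76 ± 1.27 and 9.11 ± 2.60 FPKM, did not differ beyond their spread. AT5G39670 stood below both, and CML40, CML37 and CML39 were at the foot of the order. CML37 and CML40 did not differ beyond their spread in Another Col-0, while in SALK Col-0 CML37 stood below CML40.

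The genes beside the members did not share their pattern as a rule. Of 14 tested nearest neighbours that neither are nor overlap members, 1 was higher in Another Col-0 without overlap and 3 were lower. Over all tested models the shares were 26.2% and 20.8%. The median log2 difference of the 14 was 0.04. The 3 lower ones were AT1G76660, AT1G76630 and CDF2, with log2 differences of -0.14 ± 0.05, -0.11 ± 0.06 and -0.27 ± 0.07. RBCS1A, whose model overlaps CML23, was higher without overlap, with a log2 difference of 0.30 ± 0.09. The higher one of the 14 was CAM2 (AT2G41110), a calmodulin gene that starts 616 bases beyond the end of TCH3 on the same strand. CAM2 had 133 and 119.7 FPKM in Another Col-0 and 85.4 and 70.7 FPKM in SALK Col-0, with a log2 difference of 0.69 ± 0.13 that did not pass (limma, adjusted p = 0.221). AT2G41090, on the other side of TCH3 at a distance of 976 bases, had 56.0 and 47.1 FPKM in Another Col-0 and 51.2 and 42.2 FPKM in SALK Col-0, so its lines overlapped. CAM1 and CAM4, the calmodulin genes nearest to TCH2 and CML23, had log2 differences of 0.06 ± 0.37 and 0.09 ± 0.31. CAM1, which RefSeq also calls TCH1, had 328 and 216 FPKM in Another Col-0 and 320.3 and 202 FPKM in SALK Col-0. TCH4, the touch gene for a xyloglucan endotransglucosylase of the cell wall, had 926 and 982 FPKM in Another Col-0 and 661 and 662 FPKM in SALK Col-0, with a log2 difference of 0.53 ± 0.07 (limma, adjusted p = 0.202).

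Other calcium sensors were listed to see how far the pattern reached. Over all tested models 26.2% were higher and 20.8% lower without overlap. All 7 calmodulins were tested: 2 (28.6%) were higher in Another Col-0 without overlap and none lower. Of the 7, 0 passed the test, and the median log2 difference was 0.27. Beside CAM2, CAM3 had 321 and 282 FPKM in Another Col-0 and 249.8 and 226 FPKM in SALK Col-0. CAM6 and CAM7 overlapped between the lines, with log2 differences of 0.31 ± 0.24 and 0.20 ± 0.20. Of 40 further calmodulin-like genes, 24 were tested: 9 (37.5%) were higher without overlap, 2 (8.33%) were lower, 0 passed, and the median was 0.20. These medians moved with the library left out. Without replicate 1 of Another Col-0 they were 0.05 and 0.05, and without its replicate 2 0.43 and 0.29, calmodulins first. Without replicate 1 of SALK Col-0 they were 0.41 and 0.32, and without its replicate 2 0.02 and 0.03. Such a fit, here and in the lists below, sets 1 replicate of a line against both of the other. Differences between replicate numbers therefore enter it.

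The widest difference among them was that of AT3G29000, whose protein is 64.3% identical to that of AT5G39670. AT3G29000 had 16.8 and 11.02 FPKM in Another Col-0, against 2.36 and 1.85 FPKM in SALK Col-0. Means were 13.9 ± 4.10 FPKM in Another Col-0 and 2.10 ± 0.363 FPKM in SALK Col-0, a ratio of 6.62, and the log2 difference of 2.24 ± 0.26 did not pass over all models (limma, adjusted p = 0.199). It passed when the fit was restricted to annotated models alone in their bundle, a limit set with the values already known, where 1.66% of 11836 models were called (limma, adjusted p = 0.0393). The 4 members in that fit, TCH3, CML9, CML38 and CML41, did not pass, with adjusted p-values from 0.0747 to 0.208. AT2G41410 had 210.3 and 210.04 FPKM in Another Col-0 and 153 and 146 FPKM in SALK Col-0. AT3G25600 and the model of AT1G18210, which holds a further gene, had log2 differences of 0.33 ± 0.05 and 0.42 ± 0.06.

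Sensors that act through kinases were read next. Calcineurin B-like proteins pass calcium signals to partner kinases. Of 7 tested models 1 (14.3%) was higher without overlap and none lower, where 26.2% of all tested models were higher and 20.8% lower. The median was 0.12, or between -0.07 and 0.23 with 1 library left out. The higher one holds both CBL3 and CBL7, at 40.2 and 41.0 FPKM in Another Col-0 and 35.05 and 34.6 FPKM in SALK Col-0. CBL2 and CBL4 had log2 differences of 0.14 ± 0.14 and 0.31 ± 0.36. Calcium-dependent protein kinases join a sensor and a kinase in 1 chain. Of 21 tested, 8 (38.1%) were higher and 5 (23.8%) lower without overlap, with a median of 0.05, or 0.05 to 0.09 with 1 library left out. The 4 with the smallest p were all on the higher side. CPK11 had 25.5 and 26.4 FPKM in Another Col-0 and 18.9 and 17.4 FPKM in SALK Col-0, and CPK1, CPK5 and CPK10 had log2 differences of 0.31 ± 0.06, 0.30 ± 0.09 and 0.35 ± 0.09. None of these models passed (limma, smallest adjusted p = 0.202).

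Calmodulin-binding factors followed. Of the 6 CAMTA genes 2 (33.3%) were lower without overlap and none higher, where 20.8% of all tested models were lower and 26.2% higher. The median of the CAMTA genes was 0.00. With 1 library left out that median was between -0.19 and -0.04. CAMTA1, in a model with a further gene, had 287 and 35.6 FPKM in Another Col-0 and 212 and 37.4 FPKM in SALK Col-0, far apart between replicates. CAMTA2 had 12.7 and 13.0 FPKM in Another Col-0 and 15.6 and 15.4 FPKM in SALK Col-0, and AT3G16940 had a log2 difference of -0.22 ± 0.08. CAMTA3, a repressor of immune genes, had 37.8 and 37.1 FPKM in Another Col-0 and 40.7 and 36.2 FPKM in SALK Col-0, which overlap, and AT1G67310 had a difference of 0.06 ± 0.06. Of 7 tested CBP60 genes, calmodulin-binding regulators of salicylic acid responses and relatives, 3 (42.9%) were higher and 1 (14.3%) was lower without overlap. The median of the CBP60 genes was 0.11, or between -0.02 and 0.17 with 1 library left out. AT4G31000 had 13.2 and 14.1 FPKM in Another Col-0 and 9.58 and 9.27 FPKM in SALK Col-0. CBP60A, in a model with a further gene, AT2G24300 and CBP60G had log2 differences of 0.30 ± 0.10, -0.20 ± 0.10 and 0.11 ± 0.06. None passed (limma, smallest adjusted p = 0.202).

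Genes that move calcium across membranes were also listed. Of 17 tested calcium and mechanosensitive channel genes, 7 were lower, 3 were higher and 7 overlapped, where 20.8% of all tested models were lower and 26.2% higher. The median was -0.16, and between -0.11 and -0.10 with 1 library left out, reaching -0.0952 without replicate 1 of Another Col-0. MSL5, a relative of bacterial mechanosensitive channels, had 6.09 and 6.72 FPKM in Another Col-0 and 9.38 and 9.51 FPKM in SALK Col-0. GLR3.3, a glutamate receptor-like channel of wound signals, had 7.86 and 7.22 FPKM in Another Col-0 and 10.4 and 9.68 FPKM in SALK Col-0. OSCA1, a channel opened by osmotic stress, and MSL9 had log2 differences of -0.17 ± 0.05 and -0.33 ± 0.11. Of 15 tested calcium pump and exchanger genes, which clear calcium from the cytosol, 5 (33.3%) were higher in Another Col-0, 1 (6.67%) was lower and 9 overlapped. The median of these 15 was 0.14, or 0.12 to 0.20 with 1 library left out. CAX3, a vacuolar exchanger, had 10.59 and 10.03 FPKM in Another Col-0 and 6.73 and 6.87 FPKM in SALK Col-0. The pump genes ACA4, ACA10 and ACA11 had log2 differences of 0.33 ± 0.08, 0.27 ± 0.06 and 0.36 ± 0.07. No channel or pump gene passed (limma, smallest adjusted p = 0.199), and the difference between these lists was not tested.

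**Figure D4:**
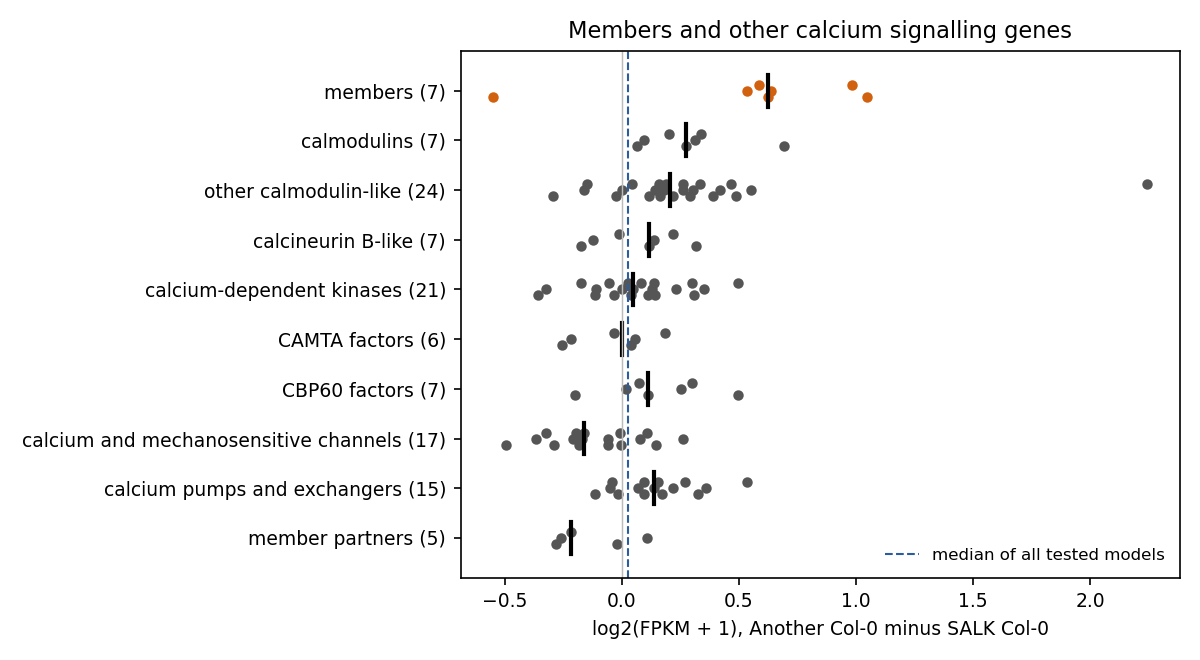
Differences in log2(FPKM + 1), Another Col-0 minus SALK Col-0, of the tested members (orange) and of the tested models of 9 other lists (grey), with the number of models in brackets. Black bars are medians, and the dashed line is the median of all tested models, 0.02. The members' median is 0.62, and AT3G29000 is the point at 2.24.

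Proteins known to work with members were also read. PINOID, the partner of TCH3, had 3.08 and 2.84 FPKM in Another Col-0 and 2.69 and 2.67 FPKM in SALK Col-0. PRR2, a transcription factor bound by CML9, had 17.2 and 16.4 FPKM in Another Col-0, lower than the 20.7 and 19.9 FPKM in SALK Col-0. JAR1, which makes the active jasmonate conjugate, had 31.7 and 28.7 FPKM in Another Col-0 and 36.6 and 33.8 FPKM in SALK Col-0. SGS3, an RNA silencing factor linked to CML38, overlapped between the lines, with a log2 difference of -0.28 ± 0.19. Over all 10 lists, 110 models were tested, of which 33 (30.0%) were higher and 20 (18.2%) lower without overlap, close to the 26.2% and 20.8% over all tested models. Their median log2 difference was 0.09, and 0 passed in limma, with 24 of the 110 at an unadjusted p under 0.05. Of all 20634 tested models, 3439 had such a p.

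The models whose pattern over the 4 libraries was most like the mean pattern of the tested members were found by Euclidean distance, after each was centred on its own mean. Of 18425 annotated models, the nearest 5 were HSFA3 (AT5G03720), AT3G18420, HTB11 (AT3G46030), AT1G69840 and AT5G63905, at distances of 0.0318 to 0.0420 on the log2(FPKM + 1) scale. HSFA3, a heat shock transcription factor gene, had 19.3 and 15.7 FPKM in Another Col-0 and 13.2 and 10.09 FPKM in SALK Col-0. HTB11, a histone H2B gene, had 197 and 161 FPKM in Another Col-0 and 138 and 108 FPKM in SALK Col-0. In all 5 replicate 1 was above replicate 2 in each line, as in 6 of the 7 tested members. The mean pattern by which the 5 were chosen has the same order, so this follows from the choice. With 4 libraries such likeness is a description of these samples only.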

How the data were processed

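RNA from 4 libraries, 2 per line, was made into TruSeq RNA V2 libraries, and read as single ends of 101 nt, per the labels' protocols. Such libraries are known to keep no record of strand. The authors deposited FPKM values per model, each with its limits and a status flag. TopHat, Cufflinks, Cuffdiff and TAIR10 are named, per the submitters' processing notes, and versions and roles are not given in the sources used here. Merged models can pool reads or divide them within a bundle.

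Models with a failed or too deep estimate (19) were left out. Values were taken as log2(FPKM + 1), which understates changes of low genes, and models whose mean reached 1 FPKM were fitted with limma 3.58.1 in R 4.3.3: the line as the only term, a mean-variance trend, 2 residual degrees of freedom, two-sided tests, and Benjamini-Hochberg adjustment over all 20634 models at 0.05. For 2 libraries against 2, the smallest p of an exact permutation test is 0.333. In 301 rows of organelle genes the fields are displaced. Depth is unknown, so no counting interval is given. The limits were used to describe the members.

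The members and lists were chosen with earlier results of these data known. Named in the text are all members, up to 4 genes per list by smallest p, and the 5 models of most similar pattern. Some nearest neighbours, models that overlap a member and organ markers are named as well, and so is CAMTA1. AT2G41090, CAM1 and CAM4 count as neighbours. Gene names came from RefSeq, which holds all 172 listed genes, or else the locus is printed. Coordinates of models are those of the table, counted from 1. Promoters and coding features were read from RefSeq's TAIR10.1 annotation and genome with Biopython 1.88. Of annotated nuclear models 45.0% start exactly at a TAIR10.1 transcript edge, against 0.031% after a move by 1000 bases. RefSeq gene starts differ from those of the deposited models for several members, most for TCH3 and CML37. Identity was taken over aligned residues of the longest protein. Alternatives covered the pseudocount, filters, scaling, the trend, the replicate number, the models tested, each library left out and a threshold of 0.10.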

Additional observations from a re-analysis of the deposited data

How the results depend on the processing

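In all 14 to 16 alternatives in which it could be fitted, each of the 7 tested members kept its direction. Log2 differences ran from 0.35 to 0.72 for TCH3, 0.47 to 0.69 for CML9, 0.48 to 0.79 for TCH2, 0.32 to 0.85 for CML38, 0.66 to 1.31 for CML23, 0.93 to 1.51 for AT5G39670 and -0.71 to -0.39 for CML41. With any single library left out, where the lone library of a line was assumed to vary like the other line's, 0 members and 0 models passed (limma, smallest adjusted p between 0.618 and 0.806), and the median of the tested members moved between 0.48 and 0.79.

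The calls depend on the replicate number. The labels do not say that it marks shared plants or days, and deviations of same-numbered libraries correlated at 0.953 over models, a single pair. With the replicate block 6 of the 7 tested members were higher and 1 lower (limma, adjusted p from 0.0337 to 0.0388). Of all 20634 models, 2951 were then called higher and 1673 lower, and of the 110 other calcium models 26 and 9. Over the 18432 annotated models only, 10 models were higher and 1 lower, no member among them. With the replicate block as well these were 4896 and 3335 of the 18432. Among them were 6 and 1 members and 38 and 18 other calcium models. Annotated models alone in their bundle, chosen after the data were seen, gave 139 higher and 57 lower of 11836. None of the 4 members in that fit was among them, and 1 other calcium gene, AT3G29000, was. Other settings gave 0 calls. The median of the CAMTA list changed sign in 7 alternatives, that of the calcineurin B-like list in 2 and that of the CBP60 list in 1. Members under 1 FPKM rest on the lowest values and have no known depth.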
